A study of Mus musculus with 15 samples.

Results

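Interferon-stimulated effector genes are the antiviral and immune genes that a cell switches on after interferon has bound its receptors. The set described here held 41 such mouse genes, named one by one, and they were looked up by symbol among the genes read by an expression array. Of the 41, 37 were read by a probe set that carried 1 gene symbol, out of 19937 genes read in this way. Isg15, Gbp2 and Igtp were read only by probe sets that also carried the symbol of a neighbouring paralog, and Ifi44 was named on no probe set in the annotation used, so these 4 have no values here.

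Interferons of types I and III signal through the Janus kinases to a transcription factor complex called ISGF3, in which IRF9 contacts DNA. ISGF3 binds the interferon-stimulated response element in target promoters, while interferon gamma acts through the gamma-activated site. The proteins made in response bind foreign RNA, degrade or withhold nucleotides, tag proteins with ISG15 or block viral entry and exit. Many of these genes are also expressed at a low level in epithelial and carcinoma cells to which no interferon has been added.

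The cells were 4T1, a mouse mammary carcinoma line that metastasises, in 5 derived or parental lines with 3 arrays each. Tw1KD cells, in which the transcription factor Twist1 was depleted, gave the first 3 lines after they received Twist1 S42D, Twist1 S42A or wild-type Twist1. They are called the S42D, S42A and wild-type lines. The other two were Tw1KD itself and parental 4T1 cells. Twist1 is a basic helix-loop-helix factor known for driving epithelial-to-mesenchymal transition. S42A replaces a phosphorylated serine by alanine, which cannot be phosphorylated, and S42D replaces it by aspartate, whose negative charge is used to imitate the phosphate. The protocol gives growth to 70% confluency in medium that held puromycin at 4 µg/ml and G418 at 800 µg/ml, and does not say separately whether parental cells had these drugs. No interferon treatment is named. The genotype entry of the S42D samples lists both substitutions, so that line is identified by its sample titles alone. How Twist1 was depleted, how the constructs were introduced, whether a line was a clone or a pool and whether the 3 arrays of a line came from separate cultures are not given in the sources used here. The p-values therefore measure the spread between these arrays, which may be technical, and each line stands for 1 construct in 1 derived line.

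All levels are log2 intensities as deposited, so a difference of 1 is a doubling of signal and a level says how bright a probe set is, not how many transcripts a cell holds. Genes were compared between lines and not with each other. A gene is called changed where limma gave a Benjamini-Hochberg adjusted p under 0.05 over all 19937 genes, and errors after ± are standard errors of a difference unless said to be SDs. The 15 arrays had medians of 6.57 to 6.72, and arrays of 1 line correlated at 0.997 to 0.999 over all genes, arrays of different lines at 0.975 to 0.987. Twist1 itself averaged 9.0, 8.70 and 8.33 in the S42D, S42A and wild-type lines, against 7.35 in Tw1KD and 9.03 in parental cells.

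The interferon-stimulated genes were brightest in the S42A line and dimmest in the wild-type line, with S42D cells between. The S42A line had the highest mean of the 5 lines for 31 of the 37 genes, where 18.4% of all genes were highest in it, and in 27 of the 31 it was called above the next line. The wild-type line had the lowest mean for 31 genes, where 33.1% of all genes were lowest in it, and in 22 it was called below the next line. Both held for 26 genes, against 6.39% of all genes. The distance between the highest and the lowest line mean ran from 0.40 to 5.08 on the log2 scale over the 37 genes with a median of 1.81, against a median of 0.36 over all genes. In this bulk RNA, a change in every cell and a change in the share of cells that express a gene cannot be told apart.

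**Figure D1:**
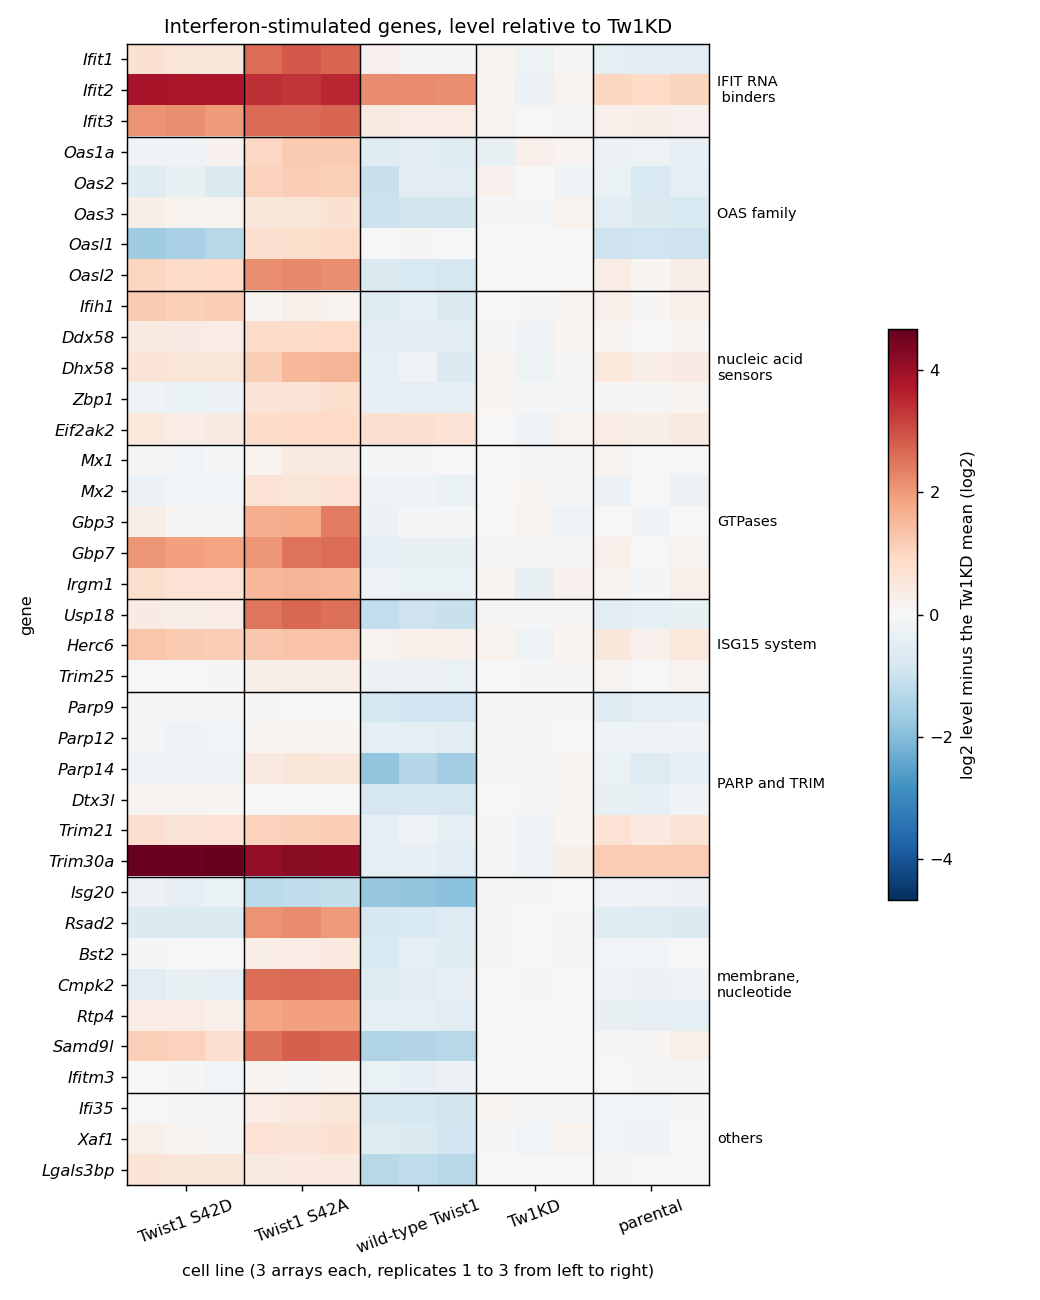
Heat map of the 37 genes (rows, grouped by role) in the 15 arrays (columns, 3 per line), coloured by log2 level minus the Tw1KD mean of that gene. The S42A columns are red for nearly every gene, the wild-type columns are mostly blue, and Ifit2 and Trim30a are deepest red in the S42D columns.

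Set against Tw1KD cells, from which the 3 Twist1-carrying lines were made, the genes split by construct. In the S42D line 18 of 37 were higher and 7 lower, where 21.7% of all genes were higher and 21.7% lower. Passing 1.5-fold as well, 11 were higher, against 7.19% of all genes. In the S42A line 32 of 37 were higher and 1, Isg20, was lower, where 22.8% of all genes were higher and 19.7% lower. Of the 32, 25 also passed 1.5-fold, against 6.82% of all genes. With wild-type Twist1, 3 of 37 were higher and 28 lower, where 23.5% of all genes were higher and 24.5% lower. Of the 28, 13 also passed 1.5-fold, against 6.04% of all genes. The median difference from Tw1KD over the 37 genes was 0.14 in S42D, 0.90 in S42A and -0.48 in wild-type cells, beside -0.045, -0.013 and -0.061 over all genes. These 3 comparisons share the Tw1KD arrays, so their values are given side by side.

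**Figure D2:**
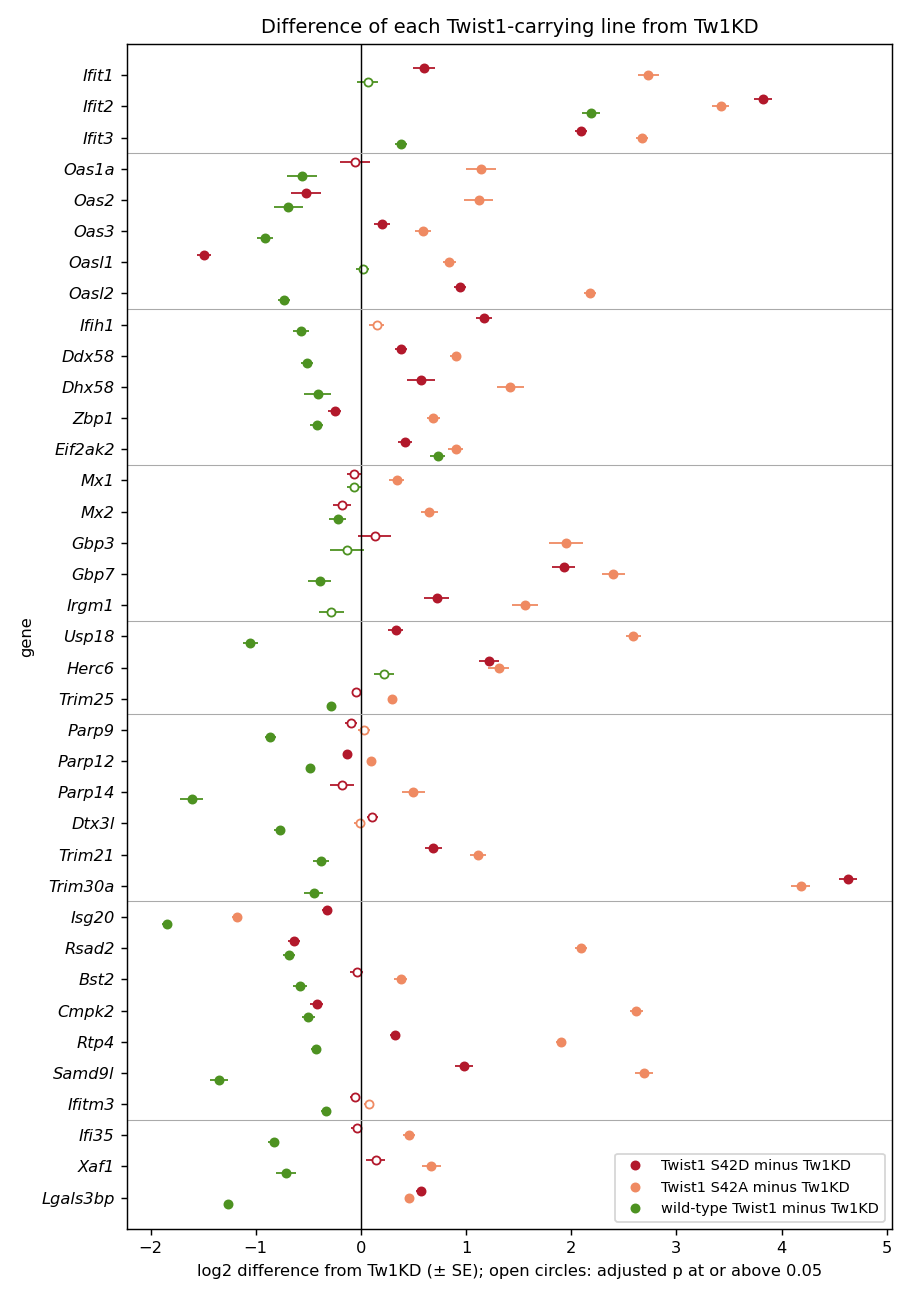
Log2 difference from Tw1KD of each gene in the S42D, S42A and wild-type lines, with bars of 1 standard error and open circles where the adjusted p was at or above 0.05. The S42A points lie right of 0 for 35 of 37 genes, and the wild-type points lie left of 0 for 31.

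The 3 IFIT proteins bind foreign RNA: Ifit1 recognises caps that lack the host's methylation and blocks their translation, and Ifit2 and Ifit3 act beside it. All 3 genes rose in both mutant lines relative to Tw1KD. Ifit1 read 7.42, 7.25 and 7.23 in S42D, 9.32, 9.55 and 9.40 in S42A and 6.91, 6.75 and 6.61 in wild-type cells, against 6.86, 6.46 and 6.76 in Tw1KD and 6.28, 6.19 and 6.18 in parental arrays. The S42A arrays lay above all others and the S42D arrays above the remaining lines, while wild-type and Tw1KD arrays overlapped. The difference from Tw1KD was 0.60 ± 0.10 in the S42D line (adjusted p = 0.00018) and 2.73 ± 0.10 in the S42A line (adjusted p = 2.8e-11), but 0.064 ± 0.10 with wild-type Twist1 (adjusted p = 0.63). Ifit2 ordered the lines differently, with 9.88, 9.83 and 9.83 in the S42D arrays, 9.44, 9.36 and 9.54 in the S42A arrays and 8.22, 8.22 and 8.20 with wild-type Twist1, against 6.12, 5.77 and 6.19 in Tw1KD and 7.04, 6.95 and 7.06 in parental cells. No line overlapped another, and S42D was highest and Tw1KD lowest. Ifit2 was 14.1-fold higher than Tw1KD in S42D cells, 10.7-fold in S42A cells and 4.57-fold in wild-type cells, so it was among the 3 genes that wild-type Twist1 cells expressed above Tw1KD, with Ifit3 and Eif2ak2. Ifit3 read 7.10, 7.16 and 6.99 in S42D, 7.63, 7.64 and 7.71 in S42A and 5.42, 5.34 and 5.35 in wild-type cells, against 5.12, 4.97 and 4.89 in Tw1KD and 5.22, 5.25 and 5.20 in parental arrays. Its S42A arrays were above the S42D arrays, both stood clear of the other lines, which did not overlap either, although the wild-type and parental lines did not differ by the test (adjusted p = 0.053). The probe sets of Ifit1 and Ifit3 may also read transcripts of the related genes Ifit1bl1 and Ifit3b, which lie between them in the genome.

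The windows upstream of Ifit1 and Ifit3 are printed because they show the response element of this gene family in its plainest form, as a pair of GAAA blocks 2 bases apart (GAAANNGAAA on either strand). Both are on mouse chromosome 19 of build GRCm38.p6, on the plus strand, and are 300 bases long, most of them upstream of the start that RefSeq's promoter table uses (chr19:34640639-34640938 for Ifit1 and chr19:34583279-34583578 for Ifit3). RefSeq's gene table begins Ifit3 further upstream, at base 34583119, which the window does not cover. Capitals mark the matches, which read TTTC first because they sit on the opposite strand, and which begin at bases -104 and -85 for Ifit1 and at -156 and -122 for Ifit3, counted from the start in the promoter table.
Ifit1: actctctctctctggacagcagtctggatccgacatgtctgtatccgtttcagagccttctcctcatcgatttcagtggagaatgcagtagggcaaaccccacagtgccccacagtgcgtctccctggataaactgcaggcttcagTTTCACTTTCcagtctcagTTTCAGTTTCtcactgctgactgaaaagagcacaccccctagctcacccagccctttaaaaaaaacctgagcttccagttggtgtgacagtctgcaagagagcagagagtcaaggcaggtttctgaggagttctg
Ifit3: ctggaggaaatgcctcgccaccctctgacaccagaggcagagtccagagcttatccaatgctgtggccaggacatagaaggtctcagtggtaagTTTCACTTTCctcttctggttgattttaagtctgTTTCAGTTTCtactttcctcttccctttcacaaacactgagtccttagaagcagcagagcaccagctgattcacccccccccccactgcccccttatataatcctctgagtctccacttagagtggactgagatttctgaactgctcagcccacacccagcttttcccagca

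The OAS family makes short oligoadenylates that activate RNase L, which cuts cellular and viral RNA. In the S42A line all 5 measured genes rose against Tw1KD, whereas in the S42D line Oas3 and Oasl2 were higher, Oas2 and Oasl1 lower, and Oas1a was not called. With wild-type Twist1 4 of the 5 fell and Oasl1 did not pass. Oasl1, which in the mouse lacks synthetase activity and holds back translation of Irf7, read 7.41, 7.54 and 7.74 in the S42D arrays, 9.85, 9.89 and 9.94 in the S42A arrays and 9.04, 9.11 and 9.06 with wild-type Twist1, against 9.05, 9.08 and 9.03 in Tw1KD and 8.10, 8.11 and 8.08 in parental cells. S42A was highest, the wild-type and Tw1KD arrays overlapped, and S42D was below every other line. The S42D line was -1.49 ± 0.064 from Tw1KD (adjusted p = 1.5e-10) and the S42A line 0.84 ± 0.064 (adjusted p = 7e-08). Its chromosomal neighbour Oasl2, an active synthetase, read 9.56, 9.45 and 9.51 in S42D, 10.73, 10.80 and 10.73 in S42A and 7.88, 7.87 and 7.78 in wild-type cells, against 8.57, 8.58 and 8.56 in Tw1KD and 8.90, 8.67 and 8.83 in parental arrays. Here S42D was the second highest line, wild type the lowest, and no 2 lines overlapped. Differences from Tw1KD were 0.94 ± 0.056 in S42D, 2.18 ± 0.056 in S42A and -0.73 ± 0.056 in wild-type cells.

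Oas2 and Oas3 are also neighbours in the genome and differed in the S42D line. Oas2 read 6.0, 6.19 and 5.90 in the S42D arrays, 7.62, 7.72 and 7.68 in the S42A arrays and 5.53, 6.01 and 6.05 with wild-type Twist1, against 6.75, 6.54 and 6.37 in Tw1KD and 6.26, 5.83 and 6.15 in parental cells. The S42A arrays stood alone at the top, Tw1KD came next, and the S42D, wild-type and parental arrays overlapped at the bottom. Relative to Tw1KD Oas2 was -0.52 ± 0.14 in S42D (adjusted p = 0.0075), 1.12 ± 0.14 in S42A and -0.69 ± 0.14 in wild-type cells. Oas3 read 7.68, 7.58 and 7.58 in S42D, 7.93, 7.98 and 8.12 in S42A and 6.39, 6.56 and 6.57 in wild-type cells, against 7.33, 7.33 and 7.57 in Tw1KD and 6.87, 6.78 and 6.69 in parental arrays. The S42D arrays lay just above the Tw1KD arrays, with wild type lowest. That S42D difference, 0.20 ± 0.077, was called in the full comparison but not under 16 of 24 alternative settings. Oas1a, whose sequence is close to that of Oas1g, read 7.54, 7.48 and 7.88 in the S42D arrays, 8.64, 8.92 and 8.92 in the S42A arrays and 7.11, 7.15 and 7.12 with wild-type Twist1, against 7.33, 7.93 and 7.81 in Tw1KD and 7.43, 7.44 and 7.29 in parental cells. S42A was highest and wild type lowest, and the S42D and Tw1KD arrays overlapped.

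Among the cytosolic sensors, Ifih1 (MDA5, which recognises long double-stranded RNA) had a pattern of its own. It read 8.52, 8.41 and 8.43 in S42D, 7.37, 7.51 and 7.43 in S42A and 6.68, 6.84 and 6.62 in wild-type cells, against 7.25, 7.20 and 7.39 in Tw1KD and 7.50, 7.32 and 7.53 in parental arrays. The S42D arrays were above all others, the S42A, Tw1KD and parental arrays overlapped, and wild type was lowest. Ifih1 was 1.17 ± 0.073 from Tw1KD in S42D (adjusted p = 7.1e-09) and 0.15 ± 0.073 in S42A (adjusted p = 0.12), and the S42D line exceeded the S42A line by 1.02 ± 0.073 (adjusted p = 4.9e-08). Ddx58 (RIG-I, which recognises RNA ends carrying phosphates) read 10.26, 10.23 and 10.21 in the S42D arrays, 10.74, 10.71 and 10.80 in the S42A arrays and 9.33, 9.33 and 9.37 with wild-type Twist1, against 9.90, 9.71 and 9.96 in Tw1KD and 9.93, 9.87 and 9.93 in parental cells. Its order was S42A, then S42D, then overlapping Tw1KD and parental arrays, then wild type. Dhx58 (LGP2, which tunes both receptors) read 7.35, 7.30 and 7.32 in S42D, 7.89, 8.30 and 8.32 in S42A and 6.37, 6.57 and 6.09 in wild-type cells, against 6.89, 6.55 and 6.80 in Tw1KD and 7.23, 7.06 and 7.12 in parental arrays. It had the same first and second lines as Ddx58, but the wild-type and Tw1KD arrays overlapped. Zbp1, a sensor of Z-form nucleic acid that can start necroptosis, read 6.76, 6.62 and 6.63 in the S42D arrays, 7.53, 7.54 and 7.75 in the S42A arrays and 6.52, 6.49 and 6.49 with wild-type Twist1, against 7.02, 6.87 and 6.87 in Tw1KD and 6.97, 6.98 and 7.03 in parental cells. Here the S42D line was not second: it was -0.25 ± 0.063 from Tw1KD (adjusted p = 0.0046) and 0.17 ± 0.063 from wild type (adjusted p = 0.038). The second of these lost its call under 8 of 24 alternative settings, among them leaving out any 1 wild-type array or S42D replicate 1, and was 0.078 with median centring. Eif2ak2 (PKR), a kinase that stops translation when it binds double-stranded RNA, was higher than Tw1KD in all 3 Twist1-carrying lines, by 0.42 ± 0.070 in S42D, 0.90 ± 0.070 in S42A and 0.73 ± 0.070 in wild-type cells.

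The Ifih1 window is printed to show a response element core that starts after the gene start, at base 32. This core reads GAAA first, on the strand of the gene. Such a core is not particular to Ifih1: Trim21, Eif2ak2 and Ifitm3 also have one after the start on that strand. Ddx58 has one after the start on the opposite strand, and so does Trim30a, at base 2 from another of its starts. Trim21, Ddx58 and Ifitm3 were highest in S42A and lowest in wild-type cells. Eif2ak2 was highest in S42A and lowest in Tw1KD. Trim30a, like Ifih1, was highest in S42D and lowest in wild-type cells. Whether the place of the core bears on these orders was not tested. The Ifih1 window lies at chr2:62646206-62646505 on the minus strand (RefSeq, GRCm38.p6), with the match in capitals.
Ifih1: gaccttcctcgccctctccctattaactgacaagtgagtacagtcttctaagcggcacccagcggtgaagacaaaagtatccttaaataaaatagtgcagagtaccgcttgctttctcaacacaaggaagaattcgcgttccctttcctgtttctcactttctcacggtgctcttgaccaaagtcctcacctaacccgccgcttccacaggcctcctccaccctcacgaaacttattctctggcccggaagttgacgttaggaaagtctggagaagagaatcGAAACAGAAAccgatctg

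The interferon-inducible GTPases coat vacuoles and disturb viral nucleocapsids. All 5 measured genes rose in S42A cells relative to Tw1KD, Gbp7 and Irgm1 rose in S42D cells, and Mx2 and Gbp7 fell in wild-type cells, where Mx2 lost its call under 7 of 24 alternative settings. Gbp7, a guanylate-binding protein, read 8.60, 8.48 and 8.38 in S42D, 8.61, 9.08 and 9.16 in S42A and 6.10, 6.19 and 6.22 in wild-type cells, against 6.60, 6.47 and 6.59 in Tw1KD and 6.78, 6.54 and 6.70 in parental arrays. Both mutant lines were well above the others, the lowest S42A array was just above the highest S42D array, and wild type was lowest. Differences from Tw1KD were 1.93 ± 0.11 in S42D, 2.40 ± 0.11 in S42A and -0.39 ± 0.11 in wild-type cells. Its neighbour Gbp3 rose 3.85-fold in the S42A line and did not pass in the S42D line (difference 0.13 ± 0.16, adjusted p = 0.54). The Gbp3 values of the S42A line were 7.39, 7.43 and 8.12, so 1 array stood higher. Irgm1, which regulates the other immunity-related GTPases, was 0.72 ± 0.12 above Tw1KD in S42D and 1.56 ± 0.12 in S42A cells. Mx2 read 4.44, 4.61 and 4.61 in the S42D arrays, 5.41, 5.29 and 5.42 in the S42A arrays and 4.57, 4.53 and 4.42 with wild-type Twist1, against 4.70, 4.83 and 4.65 in Tw1KD and 4.46, 4.76 and 4.47 in parental cells. The S42A arrays were above all others and the remaining 4 lines lay close together. Mx1 averaged 4.06 in S42D, 4.47 in S42A and 4.06 in wild-type cells, against 4.13 in Tw1KD and 4.16 in parental cells. Mx1 and Mx2 were among the dimmest 25% of genes (below 5.5) in every line, and RefSeq's table lists both as transcribed pseudogenes, so their small differences are near the floor of the array. Guanylate-binding genes are similar in sequence, and which of them a probe set reads is uncertain.

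The Gbp7 window is shown as that of the GTPase with the largest differences. It holds the core of the response element at base -53 on the opposite strand, and lies at chr3:142530086-142530385 on the plus strand (RefSeq, GRCm38.p6).
Gbp7: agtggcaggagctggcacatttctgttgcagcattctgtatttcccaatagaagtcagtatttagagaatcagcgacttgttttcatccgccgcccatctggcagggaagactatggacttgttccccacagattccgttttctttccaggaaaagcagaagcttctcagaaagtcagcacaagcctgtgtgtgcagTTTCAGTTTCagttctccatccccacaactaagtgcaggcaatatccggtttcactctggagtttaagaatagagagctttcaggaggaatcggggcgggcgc

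ISG15 is a ubiquitin-like tag. Usp18 removes it and also binds the interferon receptor subunit Ifnar2 to dampen signalling. Usp18 read 8.32, 8.18 and 8.26 in S42D, 10.42, 10.59 and 10.51 in S42A and 6.77, 6.97 and 6.88 in wild-type cells, against 7.97, 7.82 and 7.97 in Tw1KD and 7.39, 7.46 and 7.58 in parental arrays. No 2 lines overlapped: S42A was highest, then S42D, Tw1KD, parental and wild type. Usp18 was 0.33 ± 0.069 from Tw1KD in S42D cells, 2.59 ± 0.069 in S42A cells and -1.05 ± 0.069 in wild-type cells, and S42A exceeded wild type 12.4-fold (adjusted p = 8.5e-14). Herc6, the main ISG15 ligase in the mouse, rose in both mutant lines, by 1.22 ± 0.097 in S42D and 1.31 ± 0.097 in S42A cells. The difference between those lines was -0.095 ± 0.097, with a 95% interval of -0.30 to 0.11 (adjusted p = 0.53). Trim25, the ubiquitin ligase that activates RIG-I, read 9.68, 9.67 and 9.63 in the S42D arrays, 9.99, 9.99 and 10.03 in the S42A arrays and 9.44, 9.43 and 9.39 with wild-type Twist1, against 9.73, 9.63 and 9.75 in Tw1KD and 9.82, 9.72 and 9.86 in parental cells. S42A was highest and wild type lowest, within a span of 0.58 between the 2 line means.

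Trim30a, among the PARP and TRIM genes, had the widest range of line means of all 37, 5.08. It encodes a rodent TRIM protein that dampens Toll-like receptor signalling and read 10.60, 10.56 and 10.65 in S42D, 10.08, 10.20 and 10.17 in S42A and 5.55, 5.58 and 5.46 in wild-type cells, against 5.90, 5.78 and 6.25 in Tw1KD and 7.17, 7.17 and 7.17 in parental arrays. S42D was above S42A, both were above parental, parental above Tw1KD and Tw1KD above wild type, with no overlap. Relative to Tw1KD it was 24.8-fold higher in S42D cells (adjusted p = 3.6e-14) and 18.1-fold higher in S42A cells (adjusted p = 1.1e-13), and with wild-type Twist1 it was -0.45 ± 0.089 on the log2 scale. Trim30a belongs to a cluster of near-identical Trim30 genes, so its probe set may read more than 1 of them. Trim21, a cytosolic antibody receptor, read 9.29, 9.12 and 9.16 in the S42D arrays, 9.56, 9.62 and 9.65 in the S42A arrays and 8.03, 8.25 and 8.09 with wild-type Twist1, against 8.55, 8.35 and 8.60 in Tw1KD and 9.16, 8.97 and 9.13 in parental cells. S42A was highest, S42D and parental arrays overlapped, and wild type was lowest.

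Parp9 and Dtx3l form 1 complex, and together with Parp14 they are 3 neighbouring genes on chromosome 16. Their largest differences were in the wild-type line, where Parp9 was -0.86 ± 0.056, Dtx3l -0.77 ± 0.052 and Parp14 -1.61 ± 0.11 from Tw1KD. In the mutant lines neither Parp9 nor Dtx3l passed against Tw1KD: Parp9 was -0.094 ± 0.056 in S42D and 0.027 ± 0.056 in S42A cells, and Dtx3l 0.11 ± 0.052 and -0.011 ± 0.052. Parp14, a mono-ADP-ribosyltransferase, read 8.19, 8.21 and 8.13 in S42D, 8.77, 8.93 and 8.88 in S42A and 6.51, 7.04 and 6.72 in wild-type cells, against 8.32, 8.27 and 8.49 in Tw1KD and 8.04, 7.75 and 7.99 in parental arrays. S42A was highest and wild type lowest by more than 1 unit. Parp12, another enzyme of this kind, read 10.88, 10.80 and 10.83 in the S42D arrays, 11.05, 11.09 and 11.06 in the S42A arrays and 10.49, 10.50 and 10.47 with wild-type Twist1, against 11.01, 10.90 and 10.98 in Tw1KD and 10.75, 10.74 and 10.76 in parental cells. The 5 lines did not overlap but spanned only 0.58, and the S42A difference from Tw1KD, 0.10 ± 0.038, lost its call under 16 of 24 alternative settings.

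The Trim30a window is shown as that of the gene with the largest change. RefSeq gives Trim30a 2 starts, and the one printed lies at chr7:104465144-104465443 on the minus strand (GRCm38.p6), with the element core at base -36 on the opposite strand. The window of the other start, chr7:104446076-104446375, holds a core at base 2, also on the opposite strand.
Trim30a: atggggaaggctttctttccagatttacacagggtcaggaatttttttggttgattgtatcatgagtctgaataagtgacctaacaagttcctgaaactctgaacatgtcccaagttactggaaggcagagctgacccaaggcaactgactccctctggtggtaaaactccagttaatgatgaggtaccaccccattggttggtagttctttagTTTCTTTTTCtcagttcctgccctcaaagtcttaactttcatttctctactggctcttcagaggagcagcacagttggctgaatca

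The remaining effectors act on nucleotides and membranes. Rsad2 (viperin) makes a nucleotide that stops viral polymerases, and Cmpk2, its neighbour on chromosome 12, is a mitochondrial nucleotide kinase. Both were high in the S42A line alone. Rsad2 read 5.34, 5.36 and 5.33 in S42D, 8.08, 8.18 and 7.97 in S42A and 5.23, 5.29 and 5.39 in wild-type cells, against 6.04, 5.98 and 5.94 in Tw1KD and 5.42, 5.39 and 5.31 in parental arrays. Apart from S42A, Tw1KD was above the other lines, which overlapped. Cmpk2 read 5.12, 5.29 and 5.26 in the S42D arrays, 8.24, 8.30 and 8.25 in the S42A arrays and 5.04, 5.14 and 5.25 with wild-type Twist1, against 5.62, 5.69 and 5.61 in Tw1KD and 5.49, 5.37 and 5.47 in parental cells. Tw1KD came second and the S42D and wild-type arrays overlapped at the bottom. Rsad2 was 4.26-fold and Cmpk2 6.15-fold above Tw1KD in S42A cells, while in S42D cells Rsad2 was -0.64 ± 0.057 and Cmpk2 -0.42 ± 0.060 from Tw1KD. Rsad2, Cmpk2, Ifit3 and Samd9l were among the dimmest 25% of genes in at least 1 line. The Rsad2 window (chr12:26456403-26456702, minus strand, RefSeq, GRCm38.p6) is printed as that of a gene called higher in S42A and lower in S42D than in Tw1KD. Its response element core, at base -120 on the opposite strand, is in capitals. Oas2, Oasl1, Cmpk2, Parp12 and Zbp1 were called in the same way. Of these, Oasl1, Cmpk2 and Parp12 have windows without that core, and Oas2 and Zbp1 have no window.
Rsad2: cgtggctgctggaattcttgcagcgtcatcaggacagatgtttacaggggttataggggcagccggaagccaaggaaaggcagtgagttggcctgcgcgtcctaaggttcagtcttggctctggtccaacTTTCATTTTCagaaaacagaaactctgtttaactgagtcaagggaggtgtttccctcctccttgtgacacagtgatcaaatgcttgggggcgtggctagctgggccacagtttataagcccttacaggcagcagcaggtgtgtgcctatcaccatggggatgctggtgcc

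Samd9l, a growth-restraining antiviral factor, read 7.27, 7.22 and 6.93 in S42D, 8.72, 8.97 and 8.88 in S42A and 4.76, 4.80 and 4.86 in wild-type cells, against 6.15, 6.14 and 6.19 in Tw1KD and 6.21, 6.20 and 6.39 in parental arrays. S42A was highest, then S42D, and wild type was below every other line. The difference from Tw1KD was 0.98 ± 0.085 in S42D, 2.69 ± 0.085 in S42A and -1.35 ± 0.085 in wild-type cells. Rtp4, a chaperone of membrane receptors, read 8.54, 8.54 and 8.43 in the S42D arrays, 10.04, 10.11 and 10.11 in the S42A arrays and 7.78, 7.78 and 7.70 with wild-type Twist1, against 8.19, 8.16 and 8.21 in Tw1KD and 7.83, 7.82 and 7.77 in parental cells. S42A was highest and S42D second, and the wild-type and parental arrays overlapped. Bst2 (tetherin), which holds budding virions at the cell surface, read 8.32, 8.38 and 8.42 in S42D, 8.73, 8.76 and 8.87 in S42A and 7.71, 7.94 and 7.84 in wild-type cells, against 8.47, 8.44 and 8.33 in Tw1KD and 8.29, 8.29 and 8.38 in parental arrays. S42A was above and wild type below a group of overlapping S42D, Tw1KD and parental arrays. Ifitm3, which blocks fusion of viral and cellular membranes, averaged 12.82, 12.95 and 12.54 in S42D, S42A and wild-type cells, against 12.87 in Tw1KD and 12.88 in parental cells. It fell by 0.33 in the wild-type line and did not pass in the S42D or S42A line.

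Isg20, an exonuclease that degrades RNA, was lowest in wild-type cells, as most of the set was, but highest in Tw1KD. It read 11.57, 11.48 and 11.54 in the S42D arrays, 10.59, 10.67 and 10.74 in the S42A arrays and 10.07, 10.01 and 9.94 with wild-type Twist1, against 11.89, 11.80 and 11.86 in Tw1KD and 11.61, 11.63 and 11.58 in parental cells. Tw1KD was highest and the 3 Twist1-carrying lines followed parental cells in the order S42D, S42A, wild type. Isg20 was -0.32 ± 0.049 from Tw1KD in S42D, -1.18 ± 0.049 in S42A and -1.84 ± 0.049 in wild-type cells, and it was the 1 gene that fell in S42A cells. Its window holds the core of the gamma-activated site (TTCNNNGAA, in capitals) at base -73. Unlike those above, it holds no match to the response element core. RefSeq gives Isg20 3 starts, and this one lies at chr7:78913174-78913473 on the plus strand (GRCm38.p6). The Gbp7 window above also holds the gamma-activated site core, at bases -106 and -87, not marked there. Of the genes with a window, 13 held no response element core, among them Ifit2, Oasl2, Cmpk2 and Samd9l, which rose in S42A cells. Only the exact pattern within the window was searched, so an element elsewhere or of another form would be missed. For Ifit2, RefSeq's gene table begins the gene at base 34550550, inside the window that starts at base 34550444, so little sequence before that start was searched. Whether these motifs bear on the levels was not tested.
Isg20: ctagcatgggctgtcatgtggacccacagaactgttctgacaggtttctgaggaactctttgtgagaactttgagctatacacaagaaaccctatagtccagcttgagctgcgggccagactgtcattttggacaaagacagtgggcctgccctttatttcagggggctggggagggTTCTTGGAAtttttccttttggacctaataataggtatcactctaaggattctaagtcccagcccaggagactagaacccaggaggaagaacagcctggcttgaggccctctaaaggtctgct

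Ifi35, Xaf1 and Lgals3bp, which fit none of these roles, all rose in S42A and fell in wild-type cells. Lgals3bp, a secreted glycoprotein that binds galectins, read 12.65, 12.54 and 12.59 in S42D, 12.46, 12.49 and 12.49 in S42A and 10.73, 10.84 and 10.73 in wild-type cells, against 12.03, 12.04 and 12.0 in Tw1KD and 12.06, 12.0 and 12.01 in parental arrays. S42D was slightly above S42A, Tw1KD and parental arrays overlapped, and wild type was 2.39-fold below Tw1KD. Xaf1, which favours apoptosis by opposing XIAP, read 7.38, 7.29 and 7.22 in the S42D arrays, 7.82, 7.78 and 7.88 in the S42A arrays and 6.60, 6.49 and 6.25 with wild-type Twist1, against 7.12, 7.03 and 7.33 in Tw1KD and 7.05, 6.95 and 7.19 in parental cells. S42A was highest, S42D and Tw1KD overlapped, and wild type was lowest. Ifi35, a partner of the signalling protein NMI, read 9.21, 9.19 and 9.17 in S42D, 9.58, 9.67 and 9.81 in S42A and 8.41, 8.42 and 8.38 in wild-type cells, against 9.32, 9.18 and 9.19 in Tw1KD and 9.10, 9.09 and 9.13 in parental arrays. S42A was again highest and wild type lowest, with S42D and Tw1KD overlapping.

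**Figure D3:**
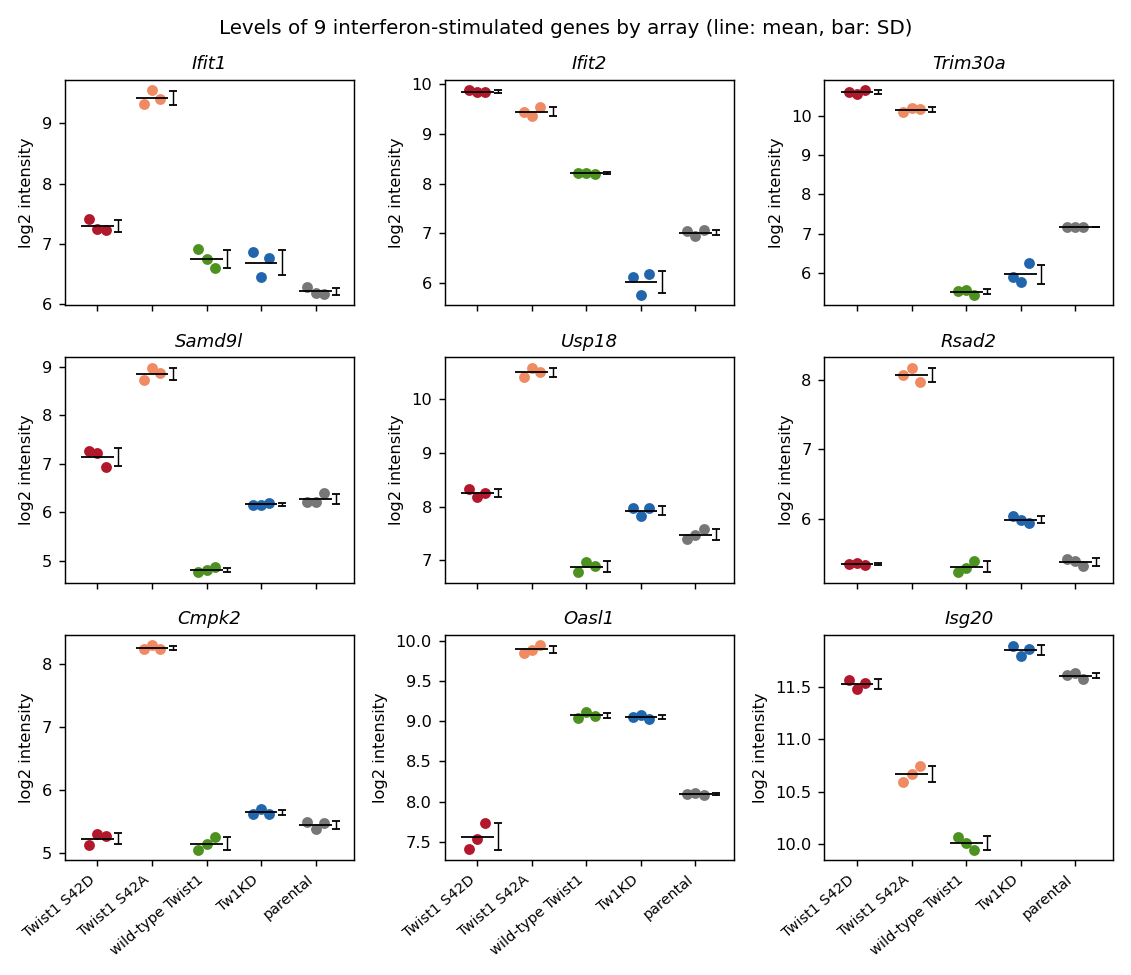
Log2 intensity of 9 genes in the 15 arrays (points), with the line mean (horizontal line) and SD (bar, n = 3). Ifit1, Samd9l, Usp18, Rsad2, Cmpk2 and Oasl1 are highest in S42A, Ifit2 and Trim30a in S42D, and Isg20 in Tw1KD.

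The spread within lines was shared between the genes. Tw1KD replicate 2 was the lowest of its line for 25 of 37 genes, S42A replicate 1 for 30, and parental replicate 2 for 22, and S42D replicate 1 was the highest of its line for 26. The deviations were small, with a median over the 37 genes of -0.06 in Tw1KD replicate 2 and -0.05 in S42A replicate 1, beside -0.004 and -0.0046 over all genes. The genes are therefore not independent measurements of a line, and the count of genes called is not a count of separate observations.

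The mutants were also compared with wild-type Twist1 directly. The differences then do not use the Tw1KD levels, although the Tw1KD arrays still enter the spread that the fit shares over all 15 arrays. In S42D cells 29 of 37 genes were higher than in wild-type cells and 2, Oasl1 and Eif2ak2, were lower, where 20.7% of all genes were higher and 22.6% lower. Passing 1.5-fold as well, 22 were higher, against 7.16% of all genes. In S42A cells 36 were higher and 0 lower, where 20% of all genes were higher and 20% lower. Of the 36, 32 also passed 1.5-fold, against 4.14% of all genes, and the gene that did not pass the test was Eif2ak2 (0.18 ± 0.070, adjusted p = 0.061). The count of 0 lower is by limma, and at an unadjusted p under 0.05 it was also 0. The median difference from wild type was 0.85 in S42D cells and 1.49 in S42A cells over the 37 genes, beside 0.01 and 0.041 over all genes. The extremes were Trim30a, 33.8-fold higher in S42D and 24.6-fold higher in S42A than in wild-type cells, and Samd9l, 5.03-fold and 16.5-fold. Samd9l in wild-type cells was among the dimmest 25% of genes, so its folds rest on a dim signal and may understate the difference.

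The 2 mutants also differed from each other. In S42D cells 29 of 37 genes were lower than in S42A cells and 4 were higher (Ifit2, Isg20, Ifih1 and Trim30a), where 19.1% of all genes were lower and 17.1% higher. Passing 1.5-fold as well, 16 were lower, against 2.95% of all genes. The largest differences were in Cmpk2 (-3.04 ± 0.060, adjusted p = 5.3e-14), Rsad2 (-2.73 ± 0.057, adjusted p = 8.7e-14), Oasl1 (-2.33 ± 0.064, adjusted p = 2e-12) and Usp18 (-2.26 ± 0.069, adjusted p = 6.2e-12). The median was -0.52 over the 37 genes and -0.034 over all genes. In 21 genes the S42D line lay between the other two, called below S42A and above wild type. For Mx1, Mx2, Oas2, Rsad2, Cmpk2 and Gbp3 it was called below S42A and did not differ from wild type by the test, with 95% intervals of the S42D minus wild-type difference of -0.081 to 0.16 for Rsad2 and -0.049 to 0.21 for Cmpk2. Rsad2 and Cmpk2 were among the dimmest 25% of genes in both S42D and wild-type cells, so their differences from S42A may be understated, and the intervals between 2 dim signals do not show that the lines are alike. For Parp9, Dtx3l, Herc6 and Lgals3bp it was above wild type and did not differ from S42A by the test, with estimates from -0.12 to 0.12.

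**Figure D4:**
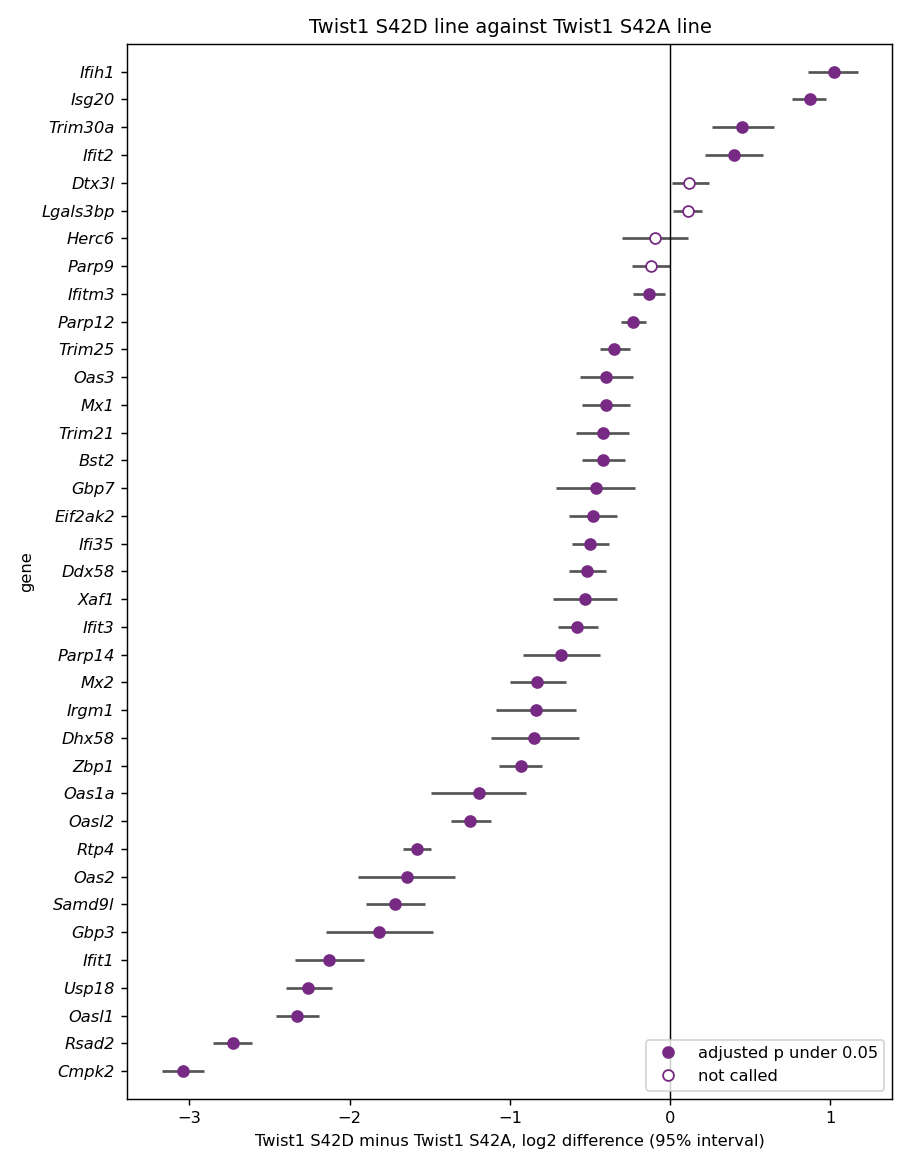
S42D minus S42A log2 difference for each of the 37 genes, ordered by size, with its unadjusted 95% interval, and open circles where the adjusted p was at or above 0.05. Cmpk2, at -3.04, is lowest and Ifih1, at 1.02, is highest.

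Depletion of Twist1 alone gave no single direction. In Tw1KD cells 13 of 37 genes were higher than in parental cells and 8 lower, where 19.9% of all genes were higher and 16.4% lower, and the median difference was 0.06 over the 37 genes and 0.0051 over all genes. Oasl1 was the gene furthest above parental (0.96 ± 0.064), followed by Oas3 (0.64 ± 0.077) and Rsad2 (0.61 ± 0.057). Trim30a (-1.19 ± 0.089), Ifit2 (-0.99 ± 0.084) and Trim21 (-0.58 ± 0.077) were furthest below. The GTPases and the group of Ifi35, Xaf1 and Lgals3bp had 0 of 8 measured genes called by limma, and at an unadjusted p under 0.05 the count was 1, Ifi35.

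The Twist1-carrying lines were also set against parental cells, the control named by the study. In S42D cells 17 genes were higher and 4 lower than in parental cells, where 19.8% of all genes were higher and 17.2% lower. In S42A cells 34 were higher and 1 lower, where 22.6% and 17.7% of all genes were. In wild-type cells 4 were higher and 24 lower, where 25% and 24% of all genes were. The medians over the 37 genes were 0.24, 0.93 and -0.38, beside -0.031, -0.005 and -0.05 over all genes. The 4 genes higher in wild-type than in parental cells were Ifit1 (0.54 ± 0.10), Ifit2 (1.20 ± 0.084), Oasl1 (0.98 ± 0.064) and Eif2ak2 (0.38 ± 0.070). Isg20 was the 1 gene lower in S42A than in parental cells (-0.94 ± 0.049).

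Upstream of these genes, 44 of 49 listed genes of interferon production and signalling were measured. Of the 11 measured interferon genes, 0 passed against Tw1KD in the S42D or S42A line by limma, and at an unadjusted p under 0.05 the count was also 0 in each line. Ifnb1, Ifna4, Ifna11, Ifna12 and Ifnk were among the dimmest 25% of genes in every line. The count of 0 therefore does not show that the interferon genes were unchanged. In the wild-type line Ifnl2, a type III interferon, was -0.40 ± 0.13 (adjusted p = 0.023), a call lost under 4 of 24 alternative settings, among them leaving out Tw1KD replicate 2 (-0.28), wild-type replicate 1 (-0.32) or wild-type replicate 2. In S42A cells the Ifnl2 difference of -0.28 ± 0.13 passed under 3 settings. Ifnb1, the interferon beta gene, was dim and flat: it read 4.52, 4.63 and 4.76 in the S42D arrays, 4.64, 4.66 and 4.66 in the S42A arrays and 4.65, 4.73 and 4.62 with wild-type Twist1, against 4.65, 4.84 and 4.46 in Tw1KD and 4.60, 4.81 and 4.60 in parental cells. The arrays of all 5 lines overlapped. For the interferon genes and the lists that follow, the shares of all genes called against Tw1KD were 21.7% higher and 21.7% lower in S42D, 22.8% and 19.7% in S42A, and 23.5% and 24.5% in wild-type cells, and a count near them is no result about a list. Of 6 receptor subunits, 5 were higher and 1 lower than Tw1KD in S42D cells, 4 lower in S42A cells, and 1 higher and 5 lower in wild-type cells. Ifnar2, the type I receptor subunit, was 0.61 ± 0.041, -0.22 ± 0.041 and -0.66 ± 0.041 in these lines, and Ifnar1 0.56 ± 0.038, -0.069 ± 0.038 and -0.25 ± 0.038. Ifngr1, the ligand-binding subunit of the interferon gamma receptor, was 0.90 ± 0.081, -0.37 ± 0.081 and 0.25 ± 0.081.

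Of the 5 measured Janus kinase and ISGF3 genes, 1 was higher and 4 lower than Tw1KD in S42D cells (21.7% of all genes in each direction), 2 higher and 2 lower in S42A cells (22.8% and 19.7%), and 1 higher and 4 lower in wild-type cells (23.5% and 24.5%). Stat2 read 9.05, 9.0 and 8.97 in S42D, 9.45, 9.52 and 9.44 in S42A and 8.87, 8.80 and 8.73 in wild-type cells, against 9.26, 9.12 and 9.20 in Tw1KD and 9.0, 9.02 and 9.07 in parental arrays. S42A was highest and wild type lowest, and the difference from Tw1KD was -0.19 ± 0.049 in S42D, 0.28 ± 0.049 in S42A and -0.40 ± 0.049 in wild-type cells. Irf9, the DNA-contacting partner in ISGF3, read 8.94, 8.95 and 8.96 in the S42D arrays, 9.52, 9.64 and 9.62 in the S42A arrays and 8.27, 8.25 and 8.25 with wild-type Twist1, against 9.94, 9.89 and 9.96 in Tw1KD and 9.28, 9.21 and 9.22 in parental cells. It was highest in Tw1KD, and all 3 Twist1-carrying lines were below it, in the order S42A, S42D, wild type. Jak2, which serves the interferon gamma receptor, was -2.04 ± 0.058 in S42D, -0.26 ± 0.058 in S42A and -1.61 ± 0.058 in wild-type cells.

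Of the 6 interferon regulatory factors, 2 were higher and 2 lower than Tw1KD in S42D cells (21.7% of all genes in each direction), 2 higher and 1 lower in S42A cells (22.8% and 19.7%), and all 6 lower in wild-type cells (24.5%). The S42A counts are near the shares of all genes. Irf7, itself an interferon-stimulated gene and the factor that amplifies type I interferon production, had the largest differences between lines. It read 7.70, 7.48 and 7.61 in S42D, 9.83, 9.97 and 10.01 in S42A and 6.27, 6.31 and 6.85 in wild-type cells, against 8.07, 7.72 and 8.01 in Tw1KD and 7.75, 7.72 and 7.82 in parental arrays. S42A stood about 2 units above the next line, wild type was lowest, and every S42D array lay just below every parental array. Irf7 was 2.0 ± 0.13 from Tw1KD in S42A (adjusted p = 1.1e-08) and -1.46 ± 0.13 in wild-type cells (adjusted p = 2.8e-07), and S42D was -2.35 ± 0.13 from S42A (adjusted p = 3.5e-09). Irf5 had another pattern, at -2.0 ± 0.077 in S42D, -1.79 ± 0.077 in S42A and -1.60 ± 0.077 in wild-type cells. Of 8 genes that couple nucleic acid sensing to interferon production, 3 were higher and 1 lower in S42D cells, 6 higher and 1 lower in S42A cells, and 5 higher and 2 lower in wild-type cells, and the S42D counts are again near the 21.7% of all genes in each direction. Tlr3, the endosomal receptor for double-stranded RNA, was 0.84 ± 0.066, 1.32 ± 0.066 and -0.58 ± 0.066 in the 3 lines, and Sting1, the adaptor of DNA sensing, 1.08 ± 0.034, 0.86 ± 0.034 and 0.16 ± 0.034. Of 8 negative regulators, 4, 5 and 4 were higher and 2, 1 and 2 lower in the S42D, S42A and wild-type lines, the lower counts being near the 21.7%, 19.7% and 24.5% of all genes. Socs1, an inhibitor of the Janus kinases, was 0.67 ± 0.052, 0.45 ± 0.052 and 0.70 ± 0.052.

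**Figure D5:**
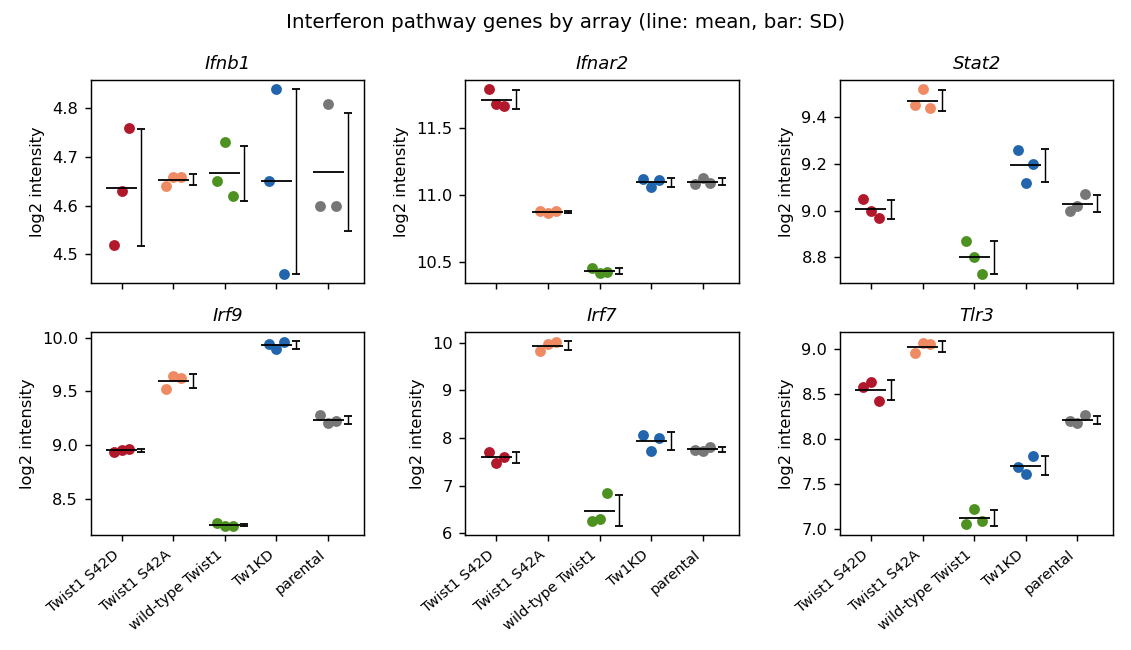
Log2 intensity of 6 interferon pathway genes in the 15 arrays (points), with the line mean (horizontal line) and SD (bar, n = 3), each panel on its own axis. Ifnb1 stays between 4.46 and 4.84 in every array, while Irf7 averages 9.94 in S42A and 6.47 in wild-type cells.

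The labelled cell type and other possible cells were checked by markers. The keratins Krt8 and Krt18 were bright in every line, with means of 12.31 to 13.18. Epcam averaged 5.63, 5.55 and 5.66 in the S42D, S42A and wild-type lines, against 9.76 in Tw1KD and 8.36 in parental cells, and Cdh1 averaged 7.50, 6.34 and 8.52, against 11.46 and 10.31. The summed log2 level of the 5 carcinoma markers was 47.48 to 47.60 in S42D arrays, 43.18 to 43.55 in S42A arrays and 48.35 to 48.44 in wild-type arrays, against 57.34 to 58.27 in Tw1KD and 53.98 to 54.88 in parental arrays. For the 9 measured of 10 leukocyte markers the sums were 55.89 to 56.34, 56.43 to 57.31 and 54.72 to 55.43, against 56.15 to 57.26 and 53.79 to 54.49, and 5 or 6 of the 9 were among the dimmest 25% of genes in each line. Ptprc, the pan-leukocyte marker, averaged 5.11, 5.23 and 5.12 in the S42D, S42A and wild-type lines, against 5.13 in Tw1KD and 5.19 in parental cells. Of the 9, 3 were higher and 1 lower than wild type in each mutant line. Of all genes, 20.7% and 22.6% were in S42D and 20% and 20% in S42A cells. Lyz2, a myeloid lysozyme, averaged 5.25, 5.74 and 4.54 in the S42D, S42A and wild-type lines, against 4.86 in Tw1KD and 4.60 in parental cells. It had the order of the set, but was below 5.5, among the dimmest 25% of genes, in every line except S42A. Cd14, another myeloid marker, was instead highest in wild-type cells: it averaged 7.48, 7.92 and 8.71 in these 3 lines, against 8.62 in Tw1KD and 7.86 in parental cells. Cd68, a lysosomal protein of macrophages that other cells also express, averaged 10.71, 10.27 and 9.80 in the S42D, S42A and wild-type lines, against 10.38 in Tw1KD and 8.50 in parental cells. The fibroblast sums were 48.96 to 49.90, 44.25 to 45.42 and 43.84 to 44.16, against 42.21 to 43.36 and 47.27 to 47.65 over 6 genes. The endothelial sums were 30.53 to 31.14, 27.57 to 28.13 and 26.50 to 26.77, against 26.24 to 27.0 and 25.66 to 26.68 over 5 genes, of which Cdh5 averaged 10.67 in S42D cells and 5.66 to 7.26 in the other lines. The 2 plasmacytoid dendritic cell markers that are not members had sums of 17.77 to 17.87, 17.57 to 17.63 and 17.0 to 17.01, against 17.41 to 17.47 and 17.46 to 17.72. The part of these differences in the interferon-stimulated genes was not tested.

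Promoter sequence was compared with that of all genes as a description. Of the 37 measured genes, 28 had a window of 300 bases in the RefSeq table (GRCm38.p6), and 15 of these (53.6%) held GAAANNGAAA on either strand, where 1079 of 27025 genes (3.99%) held it. The core of the gamma-activated site, TTCNNNGAA, was in 8 (28.6%), where 2582 genes (9.55%) held it. The 15 were Ifit1, Ifit3, Oas1a, Oas3, Rsad2, Ifih1, Ddx58, Bst2, Trim21, Trim30a, Gbp3, Gbp7, Eif2ak2, Ifitm3 and Irgm1. Neighbouring genes moved alike in some pairs and not in others. Rsad2 and Cmpk2, Parp9 and Dtx3l, and Gbp7 and Gbp3 have no other protein-coding gene between them. Rsad2 and Cmpk2 had the same calls against Tw1KD in all 3 Twist1-carrying lines, and so did Parp9 and Dtx3l. Of the last pair, Gbp7 was 3.82-fold above Tw1KD in S42D cells while Gbp3 was 1.09-fold above it and not called. Likewise, in S42D cells Oasl2 was 0.94 ± 0.056 and Oasl1 -1.49 ± 0.064 from Tw1KD.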

How the data were processed

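RNA of 5 lines of 4T1 cells was read on 15 expression arrays of 34760 probe sets, 3 per line, from 100 ng of RNA each per the labels' protocols. The values deposited by the authors are log2 intensities, 1 per probe set and array. The submitters' processing notes name R 2.10.0 and affy without saying what each did, and the normalization is not given in the sources used here. A platform annotation gave 21640 probe sets 1 symbol, 1321 several and 11799 none, and 21553 of the first were matched by gene number to RefSeq symbols. Probe sets with several symbols were not used. The brightest probe set stood for each of the 954 genes with more than 1.

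Lines were taken from the sample titles. limma 3.58.1 in R 4.3.3 fitted 1 mean per line over all 15 arrays with equal weights and no further scaling, gave 10 comparisons by 2-sided tests, and adjusted p by Benjamini-Hochberg over 19937 genes. The fit was tested on simulated data. Precision is limited by 3 arrays per line. Alternatives were median centring, quantile normalization, array weights, an intensity trend in the variance prior, the mean of probe sets, all probe sets tested, the dimmest 25% of genes left out, only the lines compared, the replicate number as a block, and each array left out in turn. A change of sign between values that were not called was not counted as a reversal.

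The genes, the pathway and marker lists and the tests were chosen with earlier results of these data known. By rule, values in every array are printed for the called members with the largest differences in each role group and for members called in opposite directions against Tw1KD in 2 lines. Other genes named here, such as Isg20, were added after their values were seen. Promoter windows and gene order came from RefSeq tables of GRCm38.p6, read with Python 3.11.15 and pandas 2.3.3, and figures were drawn with matplotlib 3.10.9.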

Additional observations from a re-analysis of the deposited data

Results flagged for a closer look

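For 8 genes, 2 of the Twist1-carrying lines were called on opposite sides of Tw1KD, each by at least 1.5-fold, and the 2 lines also differed when tested against each other. The share of all genes that meet this rule was not counted, so the 8 is no result about the set. The contrast of S42A with wild-type Twist1 held 7 of them. Samd9l was 2.69 above Tw1KD in S42A cells and fell by 1.35 in wild-type cells, a difference between the lines of 4.05 on the log2 scale. The corresponding S42A and wild-type values were 2.59 and -1.05 for Usp18 (difference 3.63), 2.18 and -0.73 for Oasl2 (2.91), and 2.09 and -0.68 for Rsad2 (2.77). They were 1.12 and -0.69 for Oas2 (1.81), 0.59 and -0.91 for Oas3 (1.5), and 0.67 and -0.71 for Xaf1 (1.38).

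Between S42D and wild-type cells the pattern held for Samd9l, with 0.98 and -1.35 (difference 2.33), and for Oasl2, with 0.94 and -0.73 (difference 1.67). Between S42D and S42A cells it held for Rsad2, with -0.64 and 2.09 (difference -2.73), and for Oasl1, with -1.49 and 0.84 (difference -2.33). In each of these 11 cases every array of one line lay beyond every array of the other. Cases picked for large called differences would show this anyway, so it adds no evidence.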

How the results depend on the processing

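The counts of genes called in each direction were recomputed under 24 alternative settings, and none moved by over 1.5 times. With each array left out in turn, the count of genes higher in S42A than in Tw1KD was 31 to 32, and of genes lower in wild-type than in Tw1KD 26 to 28. The count of genes lower in S42D than in S42A was 28 to 29. Of 370 gene and comparison pairs, 293 were called, 13 of these lost the call under at least 1 setting, 25 others gained one, and 0 changed sign while called by limma. Centring or quantile normalization moved the median of all genes by at most 0.1009, between wild-type and parental cells.

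The calls that were lost were those of small differences. Against Tw1KD, Oas3 in S42D cells lost its call under 16 settings, among them without Tw1KD replicate 1 or 2, any S42D array, S42A replicate 1 or 2, wild-type replicate 2 or 3, or parental replicate 2, with differences of 0.15 to 0.22. Parp12 in S42A cells did so under 16 (0.055 to 0.11), among them without Tw1KD replicate 2 or 3 and without any 1 of the S42A, wild-type or parental arrays or S42D replicate 3. Parp12 in S42D cells lost it under 3, among them without Tw1KD replicate 1 or S42D replicate 2 (-0.13 to -0.10). With wild-type Twist1, Mx2 lost it under 7, among them without Tw1KD replicate 1 or 2 or wild-type replicate 2 or 3 (-0.23 to -0.15), and Dhx58 under 3, among them without Tw1KD replicate 1 or wild-type replicate 3 (-0.33 to -0.28). Between S42D and wild-type cells Zbp1 lost it under 8, among them without S42D replicate 1 or any wild-type array (0.078 to 0.18). Between S42D and S42A cells Ifitm3 lost it under 6, among them without S42A replicate 1 or 3 or S42D replicate 2 or 3 (-0.13 to -0.099).

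Between Tw1KD and parental cells Oas2 lost its call without Tw1KD replicate 1 or parental replicate 2 (0.35 to 0.38), Cmpk2 without Tw1KD replicate 2 or parental replicate 2 and with the intensity trend (0.16 to 0.19), and Dhx58 under 6 settings, among them without Tw1KD replicate 2 or parental replicate 1 or 3 (-0.40 to -0.29). Against parental cells, Irgm1 in wild-type cells lost it without parental replicate 3 and with centring (-0.31 to -0.28), Oas3 in wild-type cells with centring or quantile normalization (-0.17 to -0.15), and Trim25 in S42D cells under 4, among them without S42D replicate 3 or parental replicate 1 or 3 (-0.14 to -0.11). Why these calls changed was not tested. Eif2ak2 gained a call between S42A and wild-type cells under 7 settings (0.18 to 0.20).

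The replicate numbers did not pair the arrays across all lines: deviations of same-numbered arrays from their line means correlated between -0.39 and 0.42 over all genes. The highest values were between parental and Tw1KD cells, at 0.39 for replicate 2 and 0.42 for replicate 3, beside 0.015 for replicate 1. Whether these arrays were handled together was not tested. With the replicate number as a block, 367 of the 370 results kept their call or lack of one, Oas3 in S42D cells (0.20, adjusted p = 0.062) and Parp12 in S42A cells (0.10, adjusted p = 0.063) lost theirs against Tw1KD, and Irgm1 in wild-type cells gained one (-0.28, adjusted p = 0.036). The counts higher than Tw1KD were then 17 in S42D and 31 in S42A cells. Depth has no counterpart on arrays, and the dim signals of Mx1, Mx2, Ifnb1, Ifna4, Ifna11, Ifna12 and Ifnk limit what can be seen for them.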
